A study of Mus musculus with 16 samples.

Results

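The genes described here are the mouse cytochrome P450 genes of families 1 to 4, chosen by symbol alone: every protein-coding RefSeq gene of the mm10 mouse genome whose symbol begins with Cyp, then a family number from 1 to 4, then a subfamily letter. This took 80 of 21887 protein-coding genes, 3 in family 1, 48 in family 2, 9 in family 3 and 20 in family 4. They belong to 22 subfamilies on 10 chromosomes. Of the 80, 70 lie in 9 gene clusters, defined as runs of members with gaps of at most 250000 bp, and 10 lie alone.

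Regions bound by the transcription factor E2f4 and regions carrying the histone marks H3K4me2 and H3K27ac were mapped by ChIP-seq in regrowing mouse livers, 40 h after a partial hepatectomy in which much of the organ was cut away. The KO mice carried floxed Arid1a on both alleles together with Alb-cre, a Cre recombinase driven by the albumin promoter, which is active in hepatocytes; other liver cells keep the gene. The WT mice carried the same pair of floxed alleles without Cre. All were postnatal day 90 mice of mixed C57/B6 and 129 background, all underwent hepatectomy, and hepatocytes were prepared from frozen liver. Arid1a is part of the SWI/SNF complex, which slides and evicts nucleosomes. Each histone mark had 1 library per genotype and E2f4 had 2, so no difference in a histone mark has a replicate check, and no p-value is given for one.

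Cytochrome P450 enzymes are haem proteins of the endoplasmic reticulum that insert an oxygen atom into their substrates, with electrons passed on by the reductase Por. Families 1 to 3 are the main drug and toxin oxidising enzymes of the liver, and several also act on steroids, while family 4 mostly hydroxylates fatty acids and eicosanoids. Many of these genes arose by tandem duplication, are switched on by ligand-activated nuclear receptors, and in mice differ between the sexes and between the zones of the liver lobule. Of the histone marks, H3K4me2 is found at promoters and enhancers in general, and H3K27ac at the active ones.

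The proximal promoters of 9 members are shown, each from 250 bases before to 50 bases after the annotated start, from RefSeq for assembly GRCm38.p6. The pairs Cyp2b9 with Cyp2b13 and Cyp2a4 with Cyp2a5 are shown because they include the genes with the longest H3K27ac excess in KO, Cyp2b9 and Cyp2a4, each beside a nearly identical copy. Capitals mark the bases that differ within the pair.
Cyp2b9 (chr7:26173159-26173458, plus strand): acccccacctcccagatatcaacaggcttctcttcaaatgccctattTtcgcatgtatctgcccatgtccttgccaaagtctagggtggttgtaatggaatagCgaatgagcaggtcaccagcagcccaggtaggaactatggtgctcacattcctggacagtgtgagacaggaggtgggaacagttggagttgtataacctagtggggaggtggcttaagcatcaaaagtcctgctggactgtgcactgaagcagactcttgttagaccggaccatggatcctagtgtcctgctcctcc
Cyp2b13 (chr7:26061245-26061544, plus strand): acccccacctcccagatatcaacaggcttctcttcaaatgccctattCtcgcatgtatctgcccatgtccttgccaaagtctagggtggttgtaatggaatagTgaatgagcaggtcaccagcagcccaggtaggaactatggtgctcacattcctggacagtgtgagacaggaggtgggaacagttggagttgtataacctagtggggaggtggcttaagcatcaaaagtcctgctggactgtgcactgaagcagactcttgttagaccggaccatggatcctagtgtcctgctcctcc
Cyp2a4 (chr7:26306942-26307241, plus strand): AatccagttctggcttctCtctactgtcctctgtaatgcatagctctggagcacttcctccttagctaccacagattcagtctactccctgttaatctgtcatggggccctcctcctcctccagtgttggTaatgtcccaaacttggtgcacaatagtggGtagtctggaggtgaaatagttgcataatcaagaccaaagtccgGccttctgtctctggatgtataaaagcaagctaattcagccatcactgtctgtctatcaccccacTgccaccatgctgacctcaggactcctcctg
Cyp2a5 (chr7:26835089-26835388, plus strand): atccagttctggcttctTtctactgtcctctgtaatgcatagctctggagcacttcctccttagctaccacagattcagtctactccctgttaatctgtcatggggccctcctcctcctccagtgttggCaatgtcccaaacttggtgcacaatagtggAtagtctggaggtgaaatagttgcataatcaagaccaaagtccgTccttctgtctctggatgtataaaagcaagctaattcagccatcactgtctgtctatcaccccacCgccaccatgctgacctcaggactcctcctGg
Cyp2b9 and Cyp2b13 were 99.3% identical over these 300 bases. Counted from 1 at the first printed base of Cyp2b9, the substitutions to Cyp2b13 are T48C and C104T. Cyp2a4 and Cyp2a5 were 97.7% identical, and the substitutions from Cyp2a4, counted in the same way, are C19T, T131C, G161A, G205T and T270C, beside a shift of 1 base at either end of the window.

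The next 3 promoters hold the letters CAAAGTCCA, a binding sequence of the liver factor HNF4, in capitals.
Cyp2c40 (chr19:39812765-39813064, minus strand): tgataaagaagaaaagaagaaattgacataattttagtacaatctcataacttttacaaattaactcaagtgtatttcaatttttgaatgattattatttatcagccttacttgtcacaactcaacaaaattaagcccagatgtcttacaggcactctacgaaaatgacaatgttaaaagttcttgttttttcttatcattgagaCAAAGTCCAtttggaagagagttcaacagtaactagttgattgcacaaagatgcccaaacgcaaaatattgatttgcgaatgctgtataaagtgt
Cyp2c70 (chr19:40187237-40187536, minus strand): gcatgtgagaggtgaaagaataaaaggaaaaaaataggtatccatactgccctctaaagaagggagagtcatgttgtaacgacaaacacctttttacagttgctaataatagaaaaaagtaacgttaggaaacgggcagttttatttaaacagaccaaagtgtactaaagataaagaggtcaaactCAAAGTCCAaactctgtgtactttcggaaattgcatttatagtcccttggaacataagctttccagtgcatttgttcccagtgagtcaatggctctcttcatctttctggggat
Cyp3a11 (chr5:145879805-145880104, minus strand): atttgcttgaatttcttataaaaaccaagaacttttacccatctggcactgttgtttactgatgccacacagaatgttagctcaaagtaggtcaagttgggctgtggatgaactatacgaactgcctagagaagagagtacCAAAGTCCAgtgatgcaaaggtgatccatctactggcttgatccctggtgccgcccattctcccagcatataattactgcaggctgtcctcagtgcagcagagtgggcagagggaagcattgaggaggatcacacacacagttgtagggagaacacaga
These letters, searched on both strands, occurred in 10 of the 66 members with an annotated start (15.2%) and in 73 of all 17492 promoters in the table (0.417%). The 10 were Cyp2c40, Cyp2c65, Cyp2c67, Cyp2c68, Cyp2c69, Cyp2c70, Cyp3a11, Cyp3a16, Cyp3a41a and Cyp3a41b, all of subfamilies Cyp2c and Cyp3a, and the letters began between position -125 and position -45 from the start. Several are close copies, so the 10 are not independent occurrences. Promoter identity was 97.0% for Cyp3a41a with Cyp3a41b, 92.4% for Cyp3a16 with Cyp3a41a and 91.1% for Cyp2c68 with Cyp2c69.

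The last pair comes from genes with less H3K27ac in KO, the male-biased Cyp2d9 and the ethanol oxidase Cyp2e1. Capitals mark the TATA box, TATAAA on either strand.
Cyp2d9 (chr15:82452127-82452426, plus strand): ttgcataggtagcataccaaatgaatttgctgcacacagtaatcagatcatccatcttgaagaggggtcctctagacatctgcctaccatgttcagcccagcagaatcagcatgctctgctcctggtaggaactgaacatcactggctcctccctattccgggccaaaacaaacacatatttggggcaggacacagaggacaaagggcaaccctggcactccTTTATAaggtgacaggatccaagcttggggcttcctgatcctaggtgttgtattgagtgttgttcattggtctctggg
Cyp2e1 (chr7:140763569-140763868, plus strand): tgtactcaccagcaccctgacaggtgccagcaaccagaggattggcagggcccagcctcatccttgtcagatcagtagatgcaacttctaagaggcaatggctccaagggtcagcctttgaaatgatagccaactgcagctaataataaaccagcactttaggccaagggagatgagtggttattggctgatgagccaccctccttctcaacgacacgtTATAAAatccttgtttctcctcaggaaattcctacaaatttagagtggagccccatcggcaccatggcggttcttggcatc
TATAAA or its reverse complement TTTATA occurred in 28 of the 66 member promoters (42.4%), against 13.3% of all promoters. The median member promoter held 2 CpG dinucleotides, against 13 over all promoters. More than 10 CpG were found in 5 members (7.58%) and in 55.3% of all promoters. The signal-response letters TTCNNNGAA of STAT factors were in 4 members (6.06%, against 7.78% of all), those of HNF6, ATTGAT, in 13 (19.7%, against 6.81%), and the Ahr core GCGTG in 14 (21.2%, against 38.5%). Such matches describe the letters in these windows and nothing more.

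For each mark and genotype the measure was covered length: the number of bases inside called regions within 5000 bp of either gene end. A member was called longer or shorter in KO where its covered length differed by at least 1000 bp. The lists do not record read counts, so the depth behind them is unknown, and a difference in the number of marked cells and in the mark per cell cannot be told apart. The H3K4me2 lists held 73042 regions in KO and 66832 in WT, and the H3K27ac lists 54652 in KO and 63321 in WT; the KO list covered 107% of the WT length for H3K4me2 and 92.1% for H3K27ac. All 10 hepatocyte markers examined, Alb among them, were marked in all 4 histone libraries, with sums of 98073 bp in KO and 100346 bp in WT for H3K4me2, and of 137367 bp in KO and 129894 bp in WT for H3K27ac. By the same threshold H3K27ac was longer in KO at 4 of the 10 and shorter at 1, against 10.1% and 11.2% of all genes. H3K4me2 was longer at 1 and shorter at 1, against 11.7% and 5.54%.

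The H3K27ac libraries differed between genotypes in the sex chromosomes. Xist, the X-inactivation RNA gene, had 3536 bp of H3K27ac in KO and 0 bp in WT, while the 4 Y-linked genes Kdm5d, Eif2s3y, Ddx3y and Uty had 0 bp in KO and 7388 bp in WT, with none of the 4 at 0. In the H3K4me2 libraries Xist had 6320 bp in KO and 6281 bp in WT, and all 4 Y-linked genes were at 0 in both. The labels do not give the sex of the mice. For H3K27ac, genotype and this sex-chromosome difference cannot be told apart, and each H3K27ac result below carries that limit, above all those of the sex-biased genes. Within WT, the H3K4me2 and H3K27ac libraries also differed in these values. H3K4me2 without H3K27ac in WT therefore carries a like limit.

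The Cyp genes of families 1 to 4 carried slightly less H3K4me2 and more H3K27ac in KO livers than in WT livers. H3K4me2 covered 268149 bp of the joint windows in KO and 275932 bp in WT, a KO over WT ratio of 0.972, against 1.05 over all protein-coding genes. H3K27ac covered 277701 bp in KO and 246077 bp in WT, a ratio of 1.13, against 0.987 over all genes. In other terms, H3K27ac took up 18.4% of the windows in KO and 16.3% in WT.

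H3K27ac was longer in KO at 23 of the 80 members (28.8%), against 10.1% of all genes, and shorter at 13 (16.2%), against 11.2%. H3K4me2 was longer in KO at 11 members (13.8%), against 11.7% of all genes, and shorter at 13 (16.2%), against 5.54%. The share with longer H3K4me2 was thus near that of all genes, while the shares with shorter H3K4me2 and longer H3K27ac were above theirs. Among the 63 members with H3K27ac in either genotype the median difference, KO minus WT, was 547 bp, against 11 bp over all genes so marked. Among the 68 members with H3K4me2 it was -19 bp, against 159 bp.

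Differences ran from -7337 bp to 7989 bp for H3K27ac and from -5544 bp to 3889 bp for H3K4me2. The positions of the marks were also less alike for H3K27ac: 67.2% of the members' H3K27ac length in KO was covered in WT too, and 75.9% of that in WT was covered in KO. For H3K4me2, 82.5% of the KO length was covered in WT and 80.2% of the WT length in KO. The plot of each member's covered length shows the clusters in turn, with long differences in H3K27ac at the Cyp2a, Cyp2b, Cyp2c and Cyp4a genes.

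**Figure D1:**
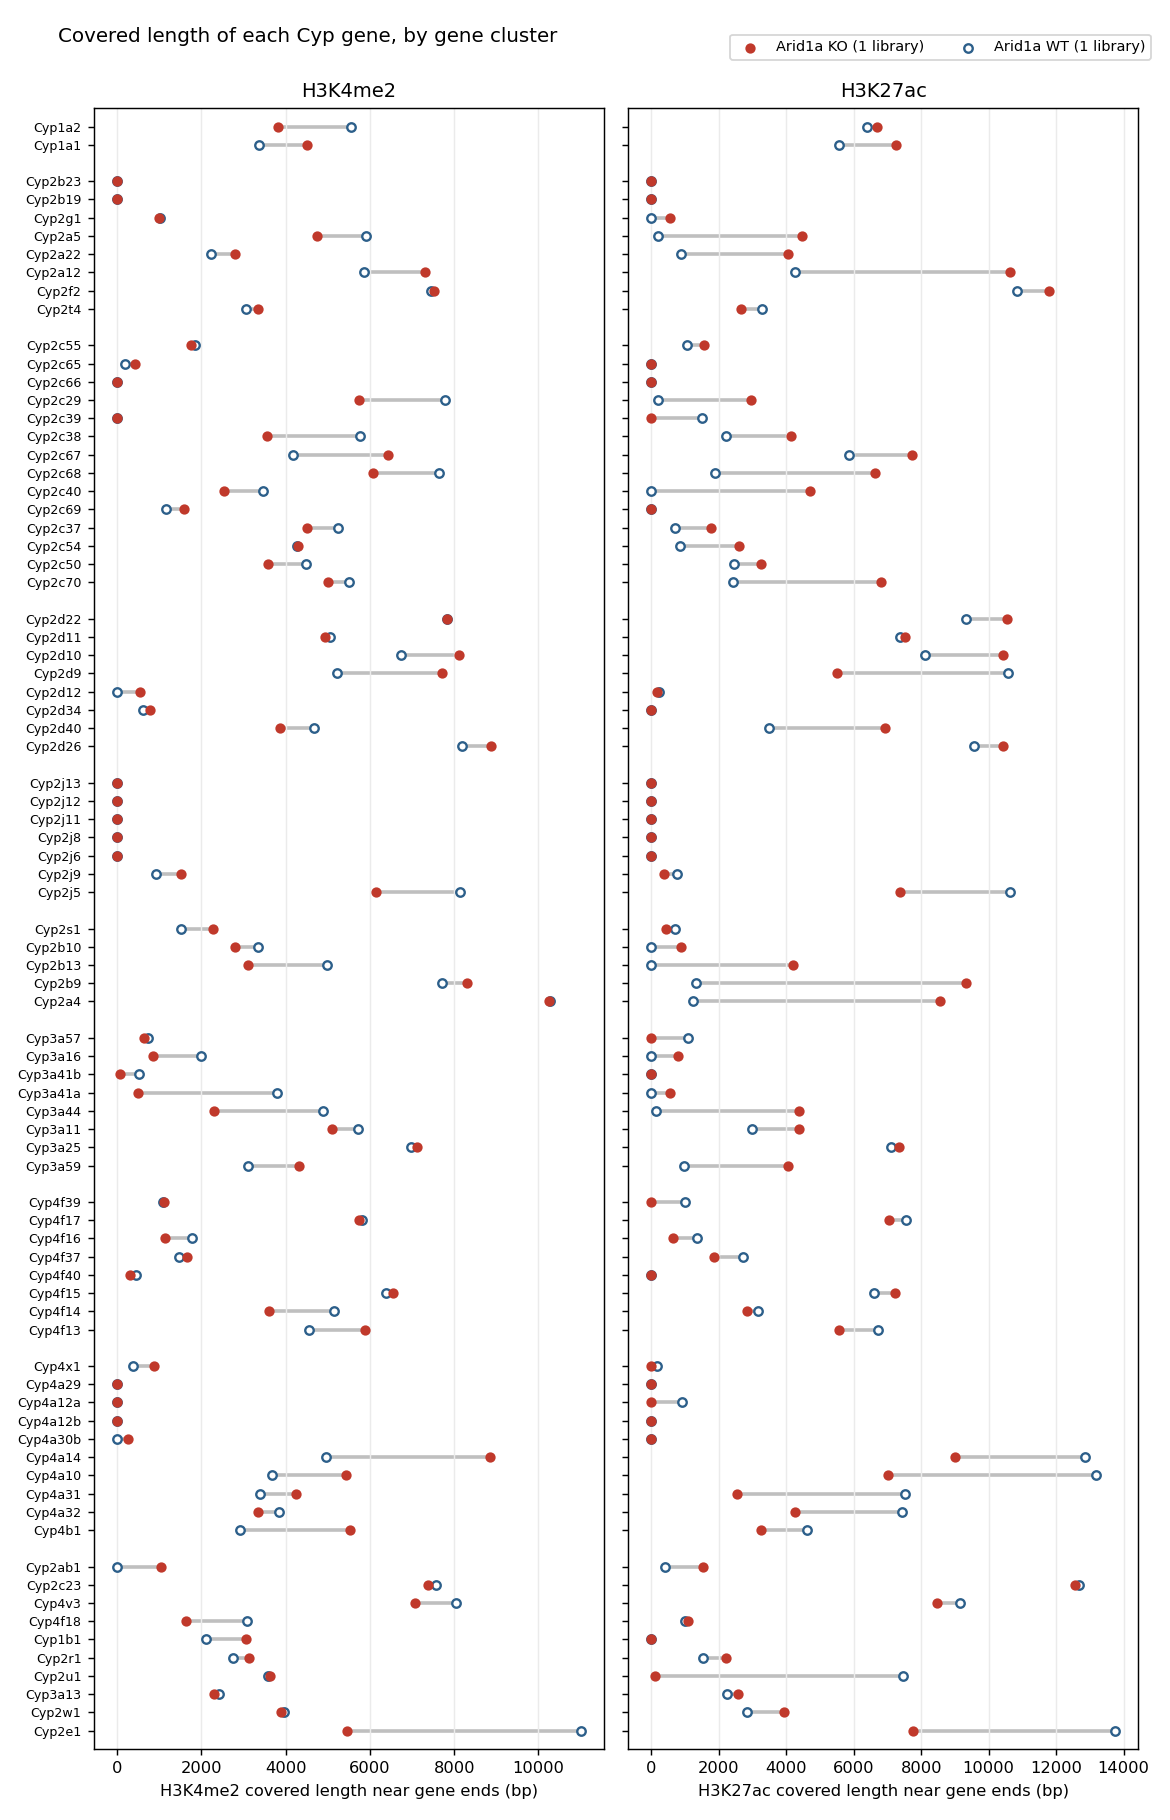
Covered length in bp of H3K4me2 (left) and H3K27ac (right) within 5000 bp of the ends of each of the 80 genes, with 1 library per genotype and mark: filled circles are KO, open circles WT, and a grey line joins them. Genes are grouped by gene cluster, single genes last. KO lies farthest to the right of WT for H3K27ac at Cyp2b9 and Cyp2a4, and farthest to the left at Cyp2u1 and Cyp4a10.

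H3K27ac was present only in KO at 6 members, against 2.1% of all genes: Cyp2c40 with 4715 bp, Cyp2b13 with 4191 bp, Cyp2b10 with 892 bp, Cyp3a16 with 788 bp, Cyp3a41a with 555 bp and Cyp2g1 with 547 bp. It was present only in WT at 5 members, against 2.69%: Cyp2c39 with 1501 bp, Cyp3a57 with 1100 bp, Cyp4f39 with 1003 bp, Cyp4a12a with 908 bp and Cyp4x1 with 157 bp. H3K4me2 was present only in KO at 3 members, against 2.31%: Cyp2ab1 with 1038 bp, Cyp2d12 with 533 bp and Cyp4a30b with 246 bp. No member had H3K4me2 only in WT, against 1.25% of all genes. Within 5000 bp of the gene ends neither mark was called in either genotype at 10 members, Cyp2b19, Cyp2b23, Cyp2c66, Cyp2j6, Cyp2j8, Cyp2j11, Cyp2j12, Cyp2j13, Cyp4a12b and Cyp4a29, against 23.2% of all genes. The annotated start of Cyp2j6 lies 10654 bp inside the outer gene end and so outside these windows; within 1000 bp of it H3K4me2 covered 1483 bp in KO and 1340 bp in WT, and H3K27ac 1336 bp in KO and 1252 bp in WT.

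The marks differed in opposite directions at some members. H3K4me2 was shorter and H3K27ac longer in KO at 6 members, Cyp2a5, Cyp2b13, Cyp2c29, Cyp2c38, Cyp2c68 and Cyp3a44, against 1.12% of all genes. H3K4me2 was longer and H3K27ac shorter at 5 members, Cyp2d9, Cyp4a10, Cyp4a14, Cyp4b1 and Cyp4f13, against 2.27%. Both marks were longer at 6 members, against 2.29%, and both were shorter at 2, Cyp2e1 and Cyp2j5, against 1.47%. The H3K4me2 libraries shared their sex-chromosome pattern while the H3K27ac libraries did not, and the part of this in the opposite differences was not tested. At 39 of the 80 members neither mark differed by 1000 bp or more. Of all genes, H3K4me2 was longer at 11.7% and shorter at 5.54%, and H3K27ac was longer at 10.1% and shorter at 11.2%. Even with no overlap among these shares, a larger share of all genes than of the members had neither mark past 1000 bp. Of all genes, 23.2% carried neither mark in either genotype and could not be called, against 10 members.

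**Figure D2:**
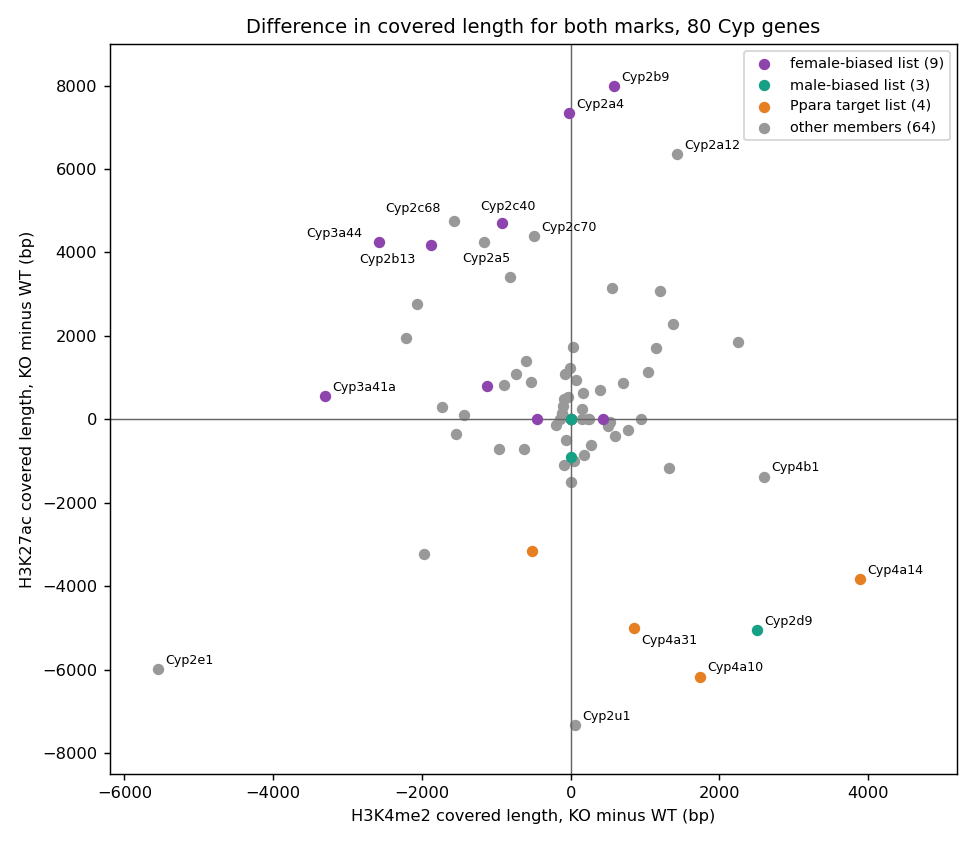
Difference in covered length, KO minus WT, of H3K4me2 (horizontal axis, bp) and H3K27ac (vertical axis, bp) for the 80 genes, coloured by role list, with 1 library per genotype and mark. Female-biased genes lie at or above 0 for H3K27ac, and the 4 Ppara target genes lie below 0.

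Family 1 holds the targets of the aryl hydrocarbon receptor Ahr, a sensor of dioxins and plant compounds. Cyp1a1, which oxidises polycyclic aromatic hydrocarbons, had 4513 bp of H3K4me2 in KO and 3365 bp in WT. Its H3K27ac covered 7253 bp in KO and 5554 bp in WT. Its annotated start lies 9685 bp inside the outer gene end, outside both windows, so these bases lie upstream in regions counted for Cyp1a2 too and downstream toward Edc3. Within 1000 bp of the start itself H3K4me2 covered 479 bp in KO and 568 bp in WT, and H3K27ac 655 bp in KO and 393 bp in WT. Its neighbour Cyp1a2, the caffeine demethylase, had 3812 bp of H3K4me2 in KO and 5544 bp in WT, and 6696 bp of H3K27ac in KO and 6402 bp in WT. They share part of their windows. Cyp1b1, which acts on oestradiol and is mainly expressed outside the liver, had 3059 bp of H3K4me2 in KO and 2114 bp in WT and no H3K27ac in either.

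The Cyp2a and Cyp2b genes on chromosome 7 showed the longest H3K27ac excess in KO. All 4 Cyp2a members were longer in KO, against 10.1% of all genes, with a joint 27694 bp in KO and 6585 bp in WT. Their H3K4me2 covered 25077 bp in KO and 24275 bp in WT. Cyp2a4, a female-biased testosterone 15-alpha-hydroxylase, had 8568 bp of H3K27ac in KO and 1225 bp in WT, with 10245 bp of H3K4me2 in KO and 10268 bp in WT. Cyp2a5, the coumarin 7-hydroxylase, had 4459 bp of H3K27ac in KO and 208 bp in WT, with 4747 bp of H3K4me2 in KO and 5916 bp in WT. Cyp2a12, a steroid hydroxylase, had 10626 bp of H3K27ac in KO and 4268 bp in WT, and Cyp2a22 had 4041 bp in KO and 884 bp in WT.

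Of the 5 Cyp2b members, 3 had H3K27ac in KO and 1 in WT, with 14405 bp in KO and 1333 bp in WT. Cyp2b9, a female-biased member, had 9322 bp of H3K27ac in KO and 1333 bp in WT. In KO a single region of 7129 bp at chr7:26171564-26178692, with a deposited fold enrichment of 5.80, spanned the promoter printed above, whereas the WT region of 1333 bp lay upstream of it. H3K4me2 covered 8301 bp at Cyp2b9 in KO and 7717 bp in WT, and a region of each genotype spanned the promoter. Cyp2b13, also female-biased, had 4191 bp of H3K27ac in KO and 0 bp in WT, and 3096 bp of H3K4me2 in KO and 4973 bp in WT. Cyp2b10, the classic target of the xenobiotic receptor Car, had 892 bp of H3K27ac in KO and 0 bp in WT, and 2790 bp of H3K4me2 in KO and 3330 bp in WT.

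Because the promoters of Cyp2b9 and Cyp2b13, of Cyp2a4 and Cyp2a5, of Cyp3a41a and Cyp3a41b, and of Cyp3a25 and Cyp3a59 are at least 95% identical, reads may have been placed at either copy, and the split within each of these pairs is uncertain. Cyp4a12a and Cyp4a12b are close copies as well. The map of the cluster from Cyp2s1 to Cyp2a4 shows the KO regions of H3K27ac over Cyp2b13, Cyp2b9 and Cyp2a4 beside the few WT regions there. Within the windows of this cluster H3K27ac covered 23.9% in KO and 3.32% in WT, and H3K4me2 27.3% in KO and 28.4% in WT. Cyp2s1, an extrahepatic member at the other end of the cluster, had 450 bp of H3K27ac in KO and 695 bp in WT.

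**Figure D3:**
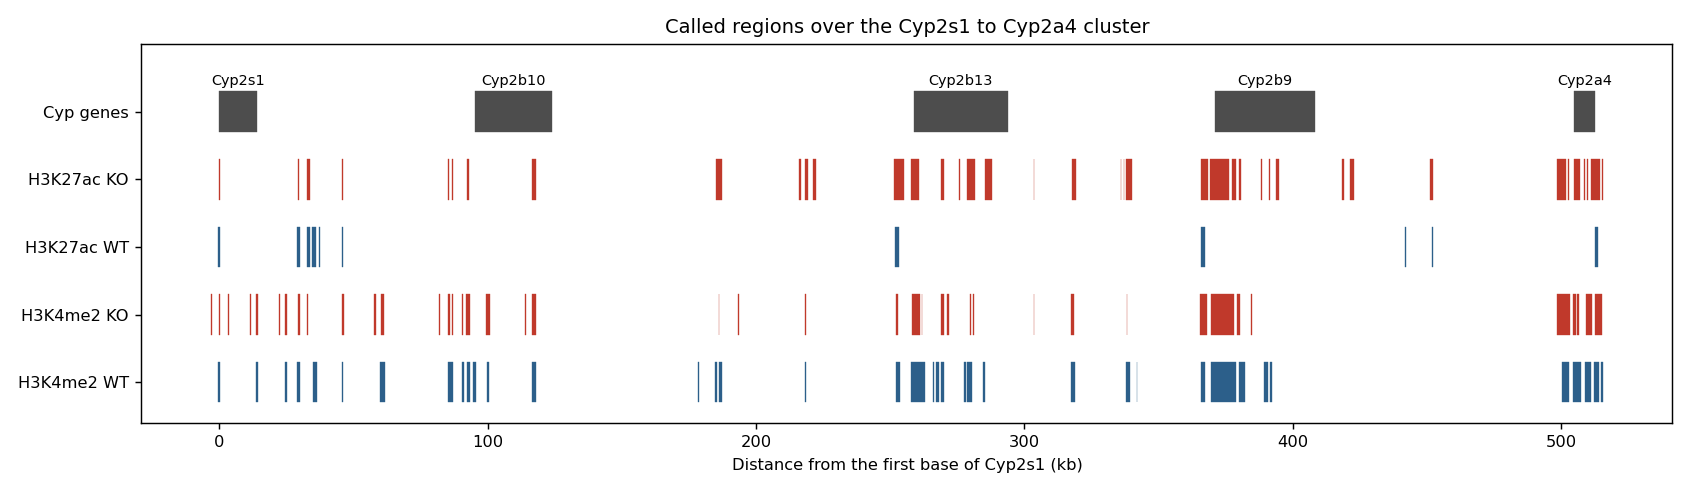
Called regions along the gene cluster from Cyp2s1 to Cyp2a4, by distance in kb from the first base of Cyp2s1, for H3K27ac and H3K4me2 in KO (red) and WT (blue), 1 library each; dark boxes are the 5 Cyp genes. H3K27ac regions lie over Cyp2b13, Cyp2b9 and Cyp2a4 in KO and are few in WT, where H3K4me2 regions are present at the same genes. The WT libraries of H3K27ac and H3K4me2 differ in their Xist and Y-linked values, so their tracks may not describe like livers.

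The Cyp2c genes, which oxidise arachidonic acid, steroids and drugs, also had more H3K27ac in KO. Over the 15 Cyp2c members H3K27ac covered 54716 bp in KO and 31827 bp in WT. It was longer at 8 (53.3%, against 10.1% of all genes) and shorter at 1 (6.67%, against 11.2%). H3K4me2 covered 52853 bp in KO and 59068 bp in WT. It was longer at 1 (6.67%, against 11.7%) and shorter at 3 (20%, against 5.54%). The longest excess of H3K27ac in this subfamily was at Cyp2c68, with 6644 bp in KO and 1892 bp in WT, at the female-biased Cyp2c40, with 4715 bp in KO and 0 bp in WT, and at Cyp2c70, a bile acid hydroxylase that makes muricholic acids, with 6805 bp in KO and 2421 bp in WT. In Cyp2c40 a KO region of 2540 bp at chr19:39811314-39813853, with a deposited fold of 3.84, covered the promoter and its HNF4 letters, and H3K4me2 covered the promoter in both genotypes.

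Cyp2c29, a target of Car, had 2954 bp of H3K27ac in KO and 198 bp in WT, and 5728 bp of H3K4me2 in KO and 7790 bp in WT. Cyp2c38 likewise had 4147 bp of H3K27ac in KO and 2205 bp in WT, and 3565 bp of H3K4me2 in KO and 5773 bp in WT. The exception was Cyp2c39, with 0 bp of H3K27ac in KO and 1501 bp in WT, and no H3K4me2 in either. Cyp2c23, an arachidonic acid epoxygenase that lies apart from the cluster and shares a window with Erlin1, had 12546 bp of H3K27ac in KO and 12681 bp in WT.

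The Cyp3a genes, relatives of the main human drug oxidase, showed less H3K4me2 and more H3K27ac in their sums. The H3K4me2 deficit lay mainly at female-biased members: the 3 called shorter were Cyp3a16, Cyp3a41a and Cyp3a44, and Cyp3a59 was the 1 called longer. H3K4me2 covered 23173 bp over the 9 members in KO and 30072 bp in WT. It was shorter at 3 (33.3%, against 5.54% of all genes) and longer at 1 (11.1%, against 11.7%). H3K27ac covered 24090 bp in KO and 14543 bp in WT. It was longer at 3 (33.3%, against 10.1%) and shorter at 1 (11.1%, against 11.2%). Cyp3a11, the classic target of the xenobiotic receptor Pxr, had 4381 bp of H3K27ac in KO and 2983 bp in WT, and 5103 bp of H3K4me2 in KO and 5706 bp in WT. The female-biased Cyp3a44 had 4373 bp of H3K27ac in KO and 127 bp in WT, but 2301 bp of H3K4me2 in KO and 4879 bp in WT. Cyp3a41a, also female-biased, had 482 bp of H3K4me2 in KO and 3782 bp in WT. Cyp3a13, which lies alone, had 2583 bp of H3K27ac in KO and 2258 bp in WT, and Cyp3a25 had 7349 bp in KO and 7101 bp in WT.

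The Cyp2d genes, which include a steroid 16-alpha-hydroxylase and drug amine oxidases, were the most densely marked cluster: H3K27ac covered 41.3% of their windows in KO and 39.5% in WT, and H3K4me2 covered 35.3% in KO and 32.1% in WT. Cyp2d9, the male-biased 16-alpha-hydroxylase, was the only Cyp2d member called shorter for H3K27ac, with 5519 bp of H3K27ac in KO and 10582 bp in WT, and 7720 bp of H3K4me2 in KO and 5220 bp in WT. Its promoter lay in H3K27ac in both genotypes, in a KO region of 4636 bp at chr15:82449074-82453709 and a WT region of 10085 bp at chr15:82447826-82457910. Cyp2d40 had 6915 bp of H3K27ac in KO and 3497 bp in WT, Cyp2d10 had 10420 bp in KO and 8127 bp in WT, and Cyp2d22 had 10557 bp in KO and 9323 bp in WT.

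Cyp2e1, which oxidises ethanol and acetone around the central vein, had the longest H3K4me2 deficit in KO. It had 5466 bp of H3K4me2 in KO and 11010 bp in WT, and 7754 bp of H3K27ac in KO and 13746 bp in WT. In KO the H3K4me2 region over the start measured 5449 bp, at chr7:140762687-140768135, and the H3K27ac region 5066 bp, at chr7:140762335-140767400. In WT a single H3K4me2 region of 15719 bp at chr7:140753706-140769424 and a single H3K27ac region of 16391 bp at chr7:140753035-140769425 spanned the gene's 5′ part and the sequence upstream. The bases within 1000 bp of the start were covered in full by both marks in both genotypes, and its downstream window overlaps that of Syce1. Thus the difference lay upstream and further into the gene.

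Cyp2u1, which hydroxylates long-chain fatty acids, had the longest H3K27ac deficit, with 111 bp in KO and 7448 bp in WT, while its H3K4me2 measured 3637 bp in KO and 3583 bp in WT. Cyp2j5, an arachidonic acid epoxygenase, had 7386 bp of H3K27ac in KO and 10620 bp in WT, and 6153 bp of H3K4me2 in KO and 8129 bp in WT. It was the most marked member of the Cyp2j cluster, in which 5 of 7 members, against 23.2% of all genes, had neither mark within 5000 bp of a gene end. Among these, Cyp2j6 carried both marks at its annotated start, as given above. Cyp2f2, the naphthalene oxidase of periportal hepatocytes, differed by less than 1000 bp in both marks, with 11791 bp of H3K27ac in KO and 10853 bp in WT, and 7527 bp of H3K4me2 in KO and 7459 bp in WT.

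None of the 20 family 4 members had longer H3K27ac in KO by 1000 bp or more, against 10.1% of all genes. That share gives few among 20 genes, so the absence is not far from it. Cyp4a12b, Cyp4a29, Cyp4a30b and Cyp4f40 had no H3K27ac in either genotype. The Cyp4a genes are fatty acid omega-hydroxylases and classic targets of the nuclear receptor Ppara. Their H3K27ac covered 22815 bp in KO and 41897 bp in WT, with 4 of 8 shorter (50%, against 11.2% of all genes) and 0 longer. Their H3K4me2, in contrast, covered 22105 bp in KO and 15899 bp in WT. It was longer at 2 (25%, against 11.7%) and shorter at 0 (against 5.54%). Cyp4a10 had 7012 bp of H3K27ac in KO and 13183 bp in WT, and 5419 bp of H3K4me2 in KO and 3684 bp in WT. Cyp4a14 had 9011 bp of H3K27ac in KO and 12851 bp in WT, and 8856 bp of H3K4me2 in KO and 4967 bp in WT. Cyp4a31 had 2531 bp of H3K27ac in KO and 7527 bp in WT, and Cyp4a32 had 4261 bp in KO and 7428 bp in WT.

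At Cyp4a14 the KO region of H3K27ac ran for 8739 bp at chr4:115491025-115499763 with a deposited fold of 7.30, and the WT region for 12481 bp at chr4:115487059-115499539 with a fold of 9.51. Cyp4b1, expressed mainly in lung, lies in the same cluster and had 3256 bp of H3K27ac in KO and 4629 bp in WT, and 5529 bp of H3K4me2 in KO and 2924 bp in WT. The male-biased Cyp4a12a had 0 bp of H3K27ac in KO and 908 bp in WT and no H3K4me2, and Cyp4a12b carried neither mark.

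The Cyp4f genes include leukotriene hydroxylases. Over their 9 members H3K27ac covered 26042 bp in KO and 29644 bp in WT. It was longer at 0 (against 10.1% of all genes) and shorter at 2 (22.2%, against 11.2%), counts near those shares for so few genes. H3K4me2 covered 27629 bp in KO and 29608 bp in WT. Cyp4f13 had 5564 bp of H3K27ac in KO and 6725 bp in WT, and 5883 bp of H3K4me2 in KO and 4557 bp in WT. Cyp4f14, which hydroxylates leukotriene B4, had 2828 bp of H3K27ac in KO and 3170 bp in WT, and 3612 bp of H3K4me2 in KO and 5148 bp in WT. Cyp4v3, the mouse counterpart of the human crystalline retinal dystrophy gene, had 8458 bp of H3K27ac in KO and 9162 bp in WT.

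By gene cluster, the KO over WT ratio of H3K27ac was 7.20 for Cyp2s1 to Cyp2a4, 1.75 for both Cyp3a57 to Cyp3a59 and Cyp2b23 to Cyp2t4, 1.16 for the Cyp1a pair, 1.05 for Cyp2d22 to Cyp2d26, 0.871 for Cyp4f39 to Cyp4f13, 0.682 for Cyp2j13 to Cyp2j5 and 0.558 for Cyp4x1 to Cyp4b1. The Cyp2c55 to Cyp2c70 cluster lay between the 2 highest of these values, with 42170 bp in KO and 19146 bp in WT. The clusters therefore lay on both sides of the ratio of all genes, 0.987. For H3K4me2 the ratio was lowest for Cyp3a57 to Cyp3a59, with 20873 bp in KO and 27667 bp in WT, and highest for Cyp4x1 to Cyp4b1, with 28503 bp in KO and 19191 bp in WT. The bars by cluster give the same values as shares of the windows.

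**Figure D4:**
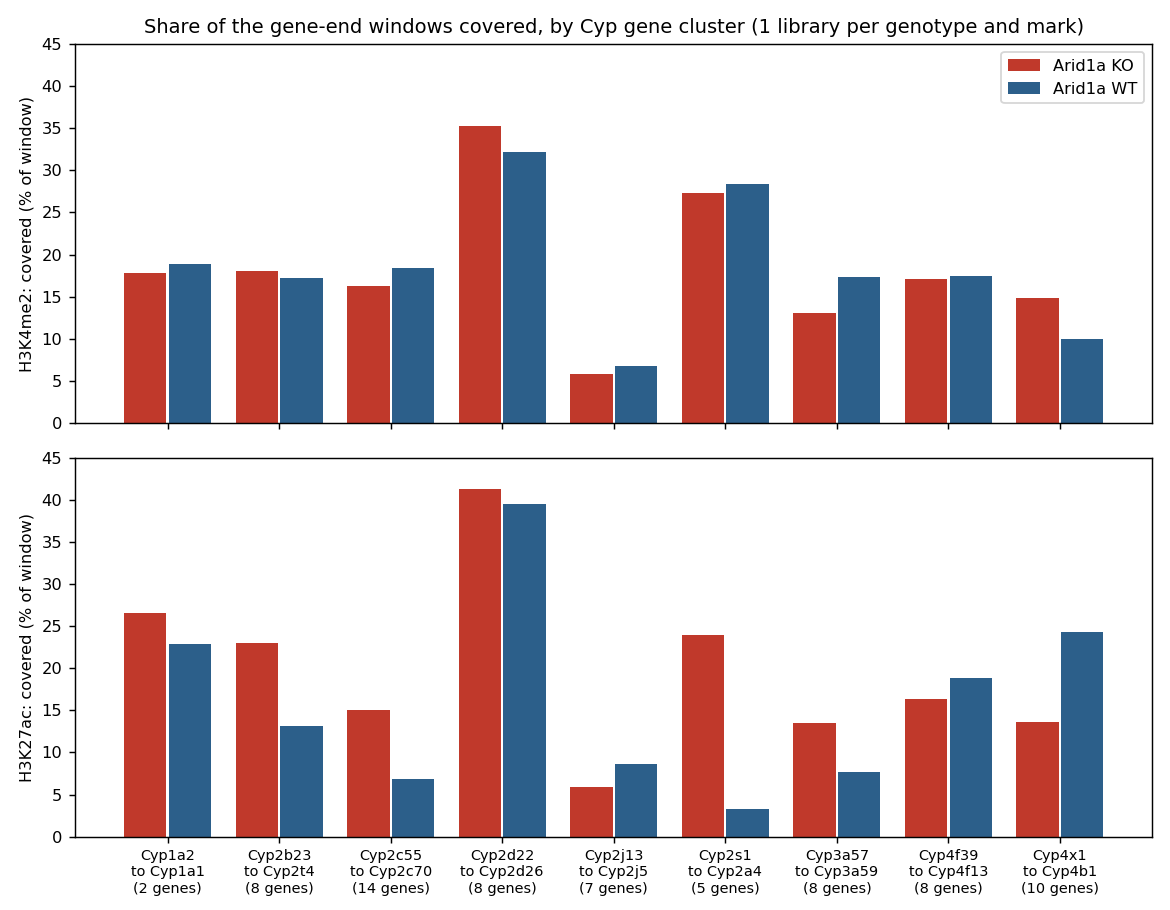
Share in % of the joint gene-end windows covered by H3K4me2 and H3K27ac in each of the 9 gene clusters, KO beside WT, with 1 library per genotype and mark and no error bars for that reason. H3K27ac is 23.9% in KO and 3.32% in WT for Cyp2s1 to Cyp2a4, and 13.6% in KO and 24.3% in WT for Cyp4x1 to Cyp4b1.

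Members known to be higher in female mouse liver carried H3K27ac mainly in KO. The 9 female-biased members, Cyp2a4, Cyp2b9, Cyp2b13, Cyp2c40, Cyp2c69, Cyp3a16, Cyp3a41a, Cyp3a41b and Cyp3a44, had 32512 bp of H3K27ac in KO and 2685 bp in WT, with 7 marked in KO and 3 in WT. It was longer at 5 (55.6%, against 10.1% of all genes) and shorter at 0 (against 11.2%). Their H3K4me2 was 29478 bp in KO and 38735 bp in WT, with 0 longer (against 11.7%) and 4 shorter (44.4%, against 5.54%). The 3 male-biased members, Cyp2d9, Cyp4a12a and Cyp4a12b, had 5519 bp of H3K27ac in KO and 11490 bp in WT, and 7720 bp of H3K4me2 in KO and 5220 bp in WT. The H3K27ac libraries differ in the Xist and Y-linked values in the same sense, with Xist marked in KO and the Y-linked genes in WT, so genotype and that difference cannot be told apart here.

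Without these 12 genes, 68 members were left, of which H3K27ac was longer at 18 (26.5%) and shorter at 12 (17.6%), with 239670 bp in KO and 231902 bp in WT, a ratio of 1.03. Their H3K4me2 was longer at 10 (14.7%, against 11.7% of all genes) and shorter at 9 (13.2%, against 5.54%). It covered 230951 bp in KO and 231977 bp in WT, a ratio of 0.996. Thus both summed ratios lay near 1 once these 12 listed genes were set aside. Over all genes they were 1.05 for H3K4me2 and 0.987 for H3K27ac. The members left thus still lay below all genes for H3K4me2 and above them for H3K27ac. The shares with longer and with shorter H3K27ac stayed above those of all genes, 10.1% and 11.2%. Sex bias among the 68 members left was not examined. Cyp2a12, Cyp2c68, Cyp2c70 and Cyp2a5 had the longest excess among those 68. The promoter of Cyp2a5 is 97.7% identical to that of Cyp2a4, which was set aside, so the split of reads between them is uncertain.

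The 4 targets of Car and Pxr, Cyp2b10, Cyp2c29, Cyp2c55 and Cyp3a11, had 9790 bp of H3K27ac in KO and 4254 bp in WT. It was longer at 2 (50%, against 10.1% of all genes). Their H3K4me2 covered 15379 bp in KO and 18673 bp in WT and was shorter at 1 (25%, against 5.54%). In lists this short a single gene moves such a share by much. The 7 pericentral members, Cyp1a2, Cyp2a5, Cyp2c29, Cyp2c37, Cyp2c50, Cyp2c54 and Cyp2e1, had 32132 bp of H3K4me2 in KO and 44237 bp in WT. It was longer at 0 (against 11.7% of all genes) and shorter at 4 (57.1%, against 5.54%). Their H3K27ac covered 29487 bp in KO and 24555 bp in WT. It was longer at 4 (57.1%, against 10.1%) and shorter at Cyp2e1 only (14.3%, against 11.2%). The 9 members known mainly outside the liver had 9259 bp of H3K27ac in KO and 10315 bp in WT, a mean of 1029 bp per gene in KO and 1146 bp in WT, against 3574 bp in KO and 3163 bp in WT over all members.

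Around the annotated starts of 66 members the H3K27ac difference was widest downstream of the start. At the start itself H3K27ac covered 53.0% of members in KO and 50% in WT, against 51.1% in KO and 49.2% in WT of all genes with a start. At 500 bp downstream of the start H3K27ac covered 36 of 66 members in KO (54.5%) and 25 in WT (37.9%), against 49.7% in KO and 48.6% in WT of all 17492 genes with a start. The gap was widest at 750 bp downstream, with 36 members covered in KO (54.5%) and 22 in WT (33.3%). Of all genes with a start, 42.7% in KO and 41.2% in WT were covered there. At 2500 bp downstream H3K4me2 covered 31.8% of members in KO and 40.9% in WT, against 23.5% in KO and 21.7% in WT of all genes. Within 1000 bp of the start H3K27ac was present in 40 members in KO (60.6%) and 36 in WT (54.5%), against 56.6% in KO and 56.2% in WT of all genes with a start. It was there only in KO at 7 members (10.6%), against 1.96% of all genes with a start, and only in WT at 3 (4.55%), against 1.62%. The 7 were Cyp2a4, Cyp2b9, Cyp2b13, Cyp2c29, Cyp2c40, Cyp2c55 and Cyp3a44, and the 3 with it only in WT were Cyp2c39, Cyp3a57 and Cyp4f16. All of the 7 but Cyp2c29 and Cyp2c55 are on the female-biased list, where genotype and the sex-chromosome difference cannot be told apart. H3K4me2 was present within 1000 bp of the start in 47 members in KO (71.2%) and 48 in WT (72.7%), against 66.5% in KO and 65.7% in WT of all genes with a start. It was there only in KO at Cyp2ab1 and Cyp4a30b, 2 members (3.03%), against 1.98%, and only in WT at Cyp2b10, Cyp3a41a and Cyp4f18, 3 members (4.55%), against 1.13%.

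**Figure D5:**
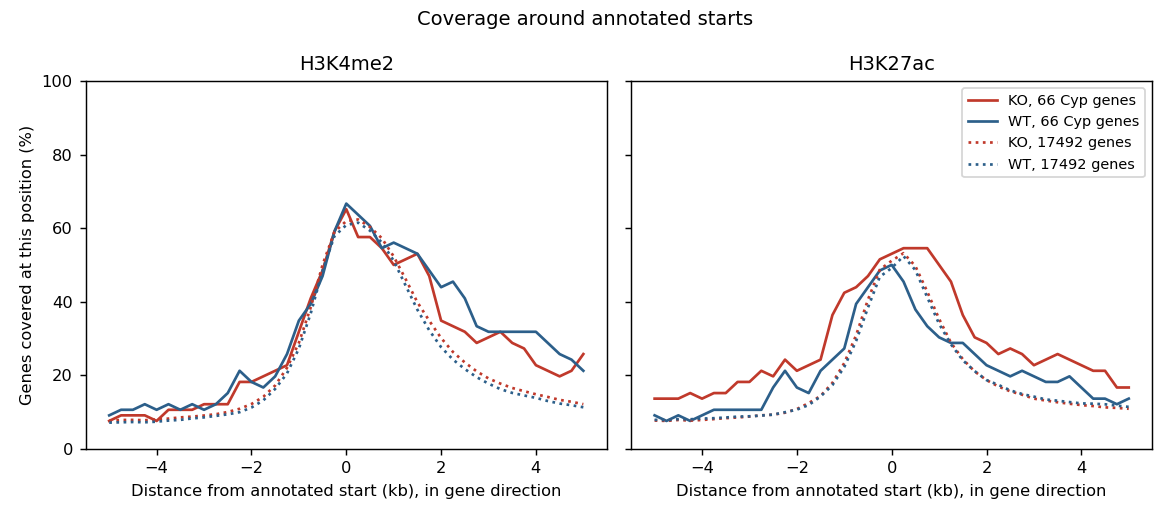
Share in % of genes whose base at a given distance from the annotated start (axis in kb) lies in a called region, for H3K4me2 and H3K27ac, in KO and WT, for the 66 Cyp genes with a start and for all 17492 genes with one. At 500 bp downstream the members' H3K27ac is 54.5% in KO and 37.9% in WT, while the lines of all genes lie at 49.7% in KO and 48.6% in WT.

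The regulators and partners of these enzymes were read as well, 32 receptors, liver factors, redox partners and haem enzymes, all marked in all 4 libraries. H3K4me2 was longer in KO at 11 (34.4%, against 11.7% of all genes) and shorter at 3 (9.38%, against 5.54%), and H3K27ac was longer at 7 (21.9%, against 10.1%) and shorter at 4 (12.5%, against 11.2%). Of all 21887 genes, 5273 had no H3K4me2 and 7366 no H3K27ac in either genotype and could not be called. The shares of all genes are therefore lower than those of marked genes like these 32. At 13 of the 32 (40.6%) neither mark differed by 1000 bp or more, also a lower share than that of all genes. Ahr had 9733 bp of H3K27ac in KO and 6451 bp in WT, and Hnf4a, the factor whose letters are shown above, had 11496 bp in KO and 9518 bp in WT. Por, the electron donor, had 2241 bp of H3K27ac in KO and 6714 bp in WT. Car (Nr1i3), with 12442 bp in KO and 13193 bp in WT, Pxr (Nr1i2), with 8921 bp in KO and 8124 bp in WT, and Ppara, with 15830 bp in KO and 16761 bp in WT, stayed within 1000 bp.

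Markers of other liver cells varied too. H3K4me2 at 8 lymphocyte genes summed to 7544 bp in KO, with 3 at 0, and 27983 bp in WT, with 2 at 0, and at 8 endothelial genes to 45305 bp in KO, with none at 0, and 32829 bp in WT, with 1 at 0. H3K27ac at these lists summed to 8388 bp in KO and 7636 bp in WT for lymphocyte genes, with 4 at 0 in each genotype, and to 48828 bp in KO and 58902 bp in WT for endothelial genes, with 1 at 0 in each. Macrophage genes summed to 19765 bp of H3K4me2 in KO and 15390 bp in WT and to 25115 bp of H3K27ac in KO and 26180 bp in WT. Stellate cell genes summed to 19849 bp of H3K4me2 in KO and 10248 bp in WT and to 5906 bp of H3K27ac in KO and 15258 bp in WT, and bile duct genes to 5056 bp of H3K4me2 in KO and 6482 bp in WT and to 0 bp of H3K27ac in KO and 1864 bp in WT. The part of cell makeup in the differences of the members was not tested.

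Other enzyme genes were measured in the same way. The 66 conjugation enzyme genes of the Ugt, Gst and Sult families, which attach sugar, glutathione or sulphate to the oxidised compounds, had an H3K27ac ratio of 1.13 as well, with 18 longer (27.3%) and 17 shorter (25.8%), and H3K4me2 was longer at 10 (15.2%) and shorter at 13 (19.7%). These shares of longer H3K27ac and shorter H3K4me2 were near those of the members. The 19 cytochrome P450 genes of other families, mainly steroid, bile acid and vitamin enzymes, had an H3K27ac ratio of 0.720. There H3K27ac was longer at 2 (10.5%, against 10.1% of all genes) and shorter at 4 (21.1%, against 11.2%). Their H3K4me2 ratio was 0.922, with 1 longer (5.26%) and 3 shorter (15.8%), so their share of shorter H3K4me2 was also near that of the members. H3K4me2 was shorter together with longer H3K27ac at 6 of the 80 members (7.5%), at 1 of the 66 conjugation genes (1.52%) and at 1 of the 19 other P450 genes (5.26%).

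E2f4, a repressor of cell cycle genes, had a summit within 5000 bp of a gene end at 1 and 2 members (1.25% and 2.5%) in the KO libraries, against 1.49% and 4.05% of all genes, and at 5 and 2 members (6.25% and 2.5%) in the WT libraries, against 8.5% and 5.96%. The mean was 1.5 ± 0.707 members in KO and 3.5 ± 2.12 in WT (SD, n = 2 each), with overlapping values. A two-sided exact permutation test over the 6 assignments gave p = 0.667, and the smallest p that 2 against 2 libraries can give is 0.333. The labels do not say that these libraries came from separate animals.

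Cyp2r1, the vitamin D 25-hydroxylase, was the member with a summit in all 4 E2f4 libraries, between 375 bp and 420 bp from its annotated start. The deposited fold was 10.5 and 19.4 in the KO libraries and 28.7 and 41.4 in the WT libraries, and the peak ranked 85 of 287 and 121 of 683 in KO and 117 of 1791 and 81 of 1058 in WT. Its promoter held 22 CpG, the most among the members, against a median of 2. Its histone marks differed by less than 1000 bp, with 2216 bp of H3K27ac in KO and 1521 bp in WT, and 3129 bp of H3K4me2 in KO and 2738 bp in WT. The summit counted for Cyp1a1 in 1 KO and both WT libraries lay within 85 bp of an end of its neighbour Edc3, and those of Cyp1b1, Cyp2c70 and Cyp2d34 were found in 1 WT library only.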

How the data were processed

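Per the submitters' processing notes, the authors aligned reads to mm10 with Bowtie2 2.2.3 and called regions with MACS2 2.0.10.20131216; Picard and HOMER are also named. The deposited region lists hold a score, a fold enrichment (ratio over background), -log10 p-values and -log10 q-values, and E2f4 lists also hold a summit position in bp. In each list the score was within 1 of 10 times the -log10 q. Read counts, and so depth, are unknown, and the inputs were not analysed as separate lists. Gene positions and promoters came from RefSeq tables for GRCm38.p6, the patched mm10 assembly; 66 of 80 members had a promoter. Covered length was computed in Python 3.11.15 with pandas 2.3.3 and numpy 2.4.6, promoter pairs were aligned with Biopython 1.88, and the code was tested on simulated regions. Of the members, 16 share windows with another member and 7 with another gene; joint sums count shared bases once. The alternatives were windows of 1000 bp and 10000 bp, the annotated start alone, the whole gene, a -log10 q of at least 5, lists of equal length and thresholds of 500 bp and 2000 bp. Members, role lists and markers were chosen with earlier results of these data known. Named genes are, per mark, the 8 longest losses and gains, up to 6 members marked in 1 genotype alone, and 25 well-known members; others were named after their values were seen. Arid1a itself checks no label here, as these marks do not read its deletion.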

Additional observations from a re-analysis of the deposited data

How the results depend on the processing

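With 1 library per genotype and mark, no result on a histone mark has a replicate check, and list length sets which short regions are seen. The summed ratios kept their direction under every alternative run, from 0.876 to 0.996 for H3K4me2 and from 1.02 to 1.20 for H3K27ac. The lowest for H3K27ac, 1.02, left out 8 members with near-identical promoters, an alternative chosen after seeing the data, as was leaving out the sex-biased lists (1.03).

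Counts of members with shorter and longer H3K4me2 in KO were 13 and 11 as reported. With windows of 10000 bp and a threshold of 2000 bp they were 7 and 5, against 2.87% and 6.61% of all genes. At a threshold of 500 bp they were 22 and 20, against 12.2% and 23.7%, and at 2000 bp 5 and 4, against 1.33% and 2.76%. With a -log10 q of at least 5 the longer count was 7, against 9.37%. Counts of shorter and longer H3K27ac, 13 and 23 as reported, were 8 and 14 at a threshold of 2000 bp, against 4.19% and 3.40%, and 16 and 18 with a -log10 q of at least 5, against 8.58% and 10.3%. Fewer members pass a longer threshold by construction; otherwise the cause was not tested. A repeat without members of near-identical protein was not run, as proteins were not used here.

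For E2f4 the difference in mean member number, KO minus WT, was -2 and ran from -3.5 to -0.5 when each library was left out, -0.5 without WT replicate 1. With the replicate number as a block it was -2, from -4 and 0 within the numbers; nothing in the labels pairs same-numbered libraries.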
